A study of Homo sapiens with 24 samples.

Results

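The 10 genes described here are those of coactivators and DNA-binding factors of the YAP-TEAD pathway and of targets that this pathway is known to switch on. They were picked out by gene name: a row of the deposited table counted as a member when its gene name, taken apart at commas, was that of YAP1, WWTR1, TEAD1, TEAD3, LATS2, CYR61 (also called CCN1), CTGF (also called CCN2), ANKRD1, AMOTL2 or AJUBA. Each of the 10 genes had 1 row of its own, joined to no other gene name, among the 30276 features of the table. The first 4 are counted as factors and the other 6 as targets.

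RNA was sequenced from CD18/HPAF, an established line of human pancreatic cancer cells and a subline of HPAF. One group of 12 samples received 1 µM ISOX for 48 h. ISOX inhibits histone deacetylases and acts most strongly on HDAC6, which removes acetyl groups from tubulin and other proteins of the cytosol. The other group of 12 samples was left untreated, and the labels name no vehicle for it. All samples come from this single line, and the sources used here do not say whether the 12 samples of a group were separate cultures. In each group the sample titles carry a first number with 3 values and a second with 4, and neither is explained. A group may therefore hold fewer than 12 separate cultures. The authors deposited a single pooled value per gene and group. This value is an FPKM, the fragment count of a gene scaled by the length of its transcript and by all mapped fragments of the library, so that levels can be compared between genes. The values therefore carry no SD and no n, the depth is unknown, and no difference below is set against the spread between replicates or given a test, since the pooled values allow none. A log2 ratio below is log2 of the ISOX FPKM over the untreated FPKM.

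YAP1 and its paralog TAZ, which is the product of WWTR1, are coactivators that do not bind DNA themselves and reach it through the TEAD factors. The Hippo kinases MST1/2 and LATS1/2 phosphorylate YAP and TAZ and so keep them out of the nucleus, while a stretched, spread or sparse cell lets them enter it. Several of their targets act back on the pathway. LATS2 is a kinase that inhibits YAP, AMOTL2 is a junction protein that holds YAP in the cytosol, and AJUBA is a LIM domain protein that binds LATS kinases. CYR61 and CTGF are secreted matricellular proteins, and ANKRD1 is an ankyrin repeat protein known from heart and skeletal muscle. In pancreatic cancer, YAP is known for supporting tumor growth. The activity of YAP and TAZ is set largely by phosphorylation and location in the cell, which transcript levels do not measure.

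The promoter of CTGF is shown here because it holds the densest run of TEAD motifs among these genes. RefSeq promoter sequences (build GRCh38.p14, from -250 to 50 bases around an annotated start) were matched for 8 of the 10 genes, with 11 promoters in all, since WWTR1, AMOTL2 and AJUBA have more than 1 listed start. TEAD1 and CYR61 were not matched. The TEAD motif searched was GGAATG on both strands. The stretch below covers the 240 bases from -250 to -11 before the CTGF start on the minus strand, chr6:131951383-131951622, and capitals mark the TEAD motif.
CTGF: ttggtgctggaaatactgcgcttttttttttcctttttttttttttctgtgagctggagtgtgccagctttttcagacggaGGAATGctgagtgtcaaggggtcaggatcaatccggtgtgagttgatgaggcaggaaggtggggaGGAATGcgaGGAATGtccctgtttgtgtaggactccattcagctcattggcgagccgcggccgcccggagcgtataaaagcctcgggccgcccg

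Within it the motif stood 3 times on the gene's own strand, at -169, -104 and -95 bases from the start, and the last 2 lay 3 bases apart. Of 35116 listed promoters of the same length, 4928 (14.0%) held the motif at least once and 45 (0.128%) at least 3 times. The motif was present in 6 of the 11 promoters described, which belong to 6 of the 8 genes. The 30-base windows below are shown so that the sites outside CTGF can be compared, and capitals mark the same motif (GGAATG, or CATTCC where it lies on the other strand).
YAP1 at -162, chromosome 11: cgggagtgtgcaGGAATGtagcaacttgca
ANKRD1 at -220, chromosome 10: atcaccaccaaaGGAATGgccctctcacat
ANKRD1 at -128, chromosome 10: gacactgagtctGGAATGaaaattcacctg
AMOTL2, second listed start, at -69, chromosome 3: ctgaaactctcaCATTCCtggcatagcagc
AJUBA, second listed start, at -59, chromosome 14: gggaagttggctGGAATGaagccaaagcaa
LATS2 at 10 after the start, chromosome 13: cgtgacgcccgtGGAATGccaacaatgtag

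The bases next to the motif differed from gene to gene, and the site in AMOTL2 was the only one on the strand opposite to the gene. The deposited row of ANKRD1 runs 188 bases upstream of the RefSeq start, so that its site at -128 lies inside that row and its site at -220 outside it, and the rows of AMOTL2 and AJUBA take in the sites shown for them. Neither promoter of WWTR1, nor that of TEAD3, nor the first listed start of AMOTL2 and AJUBA held GGAATG. AP-1 sites are often found near TEAD sites. The AP-1 pattern searched, TGANTCA, allows any base at N, so that as a pattern it covers both strands. It is looser than the usual AP-1 site, which has C or G there. Among these promoters it was matched in that of ANKRD1 alone, at -195, as TGATTCA, against 7.71% of all listed promoters. The CArG box, the binding motif of the actin-regulated factor SRF, was in none of the 11 promoters and in 1.29% of all. A match of these letters is a description of the sequence and not a measured binding site.

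**Figure D1:**
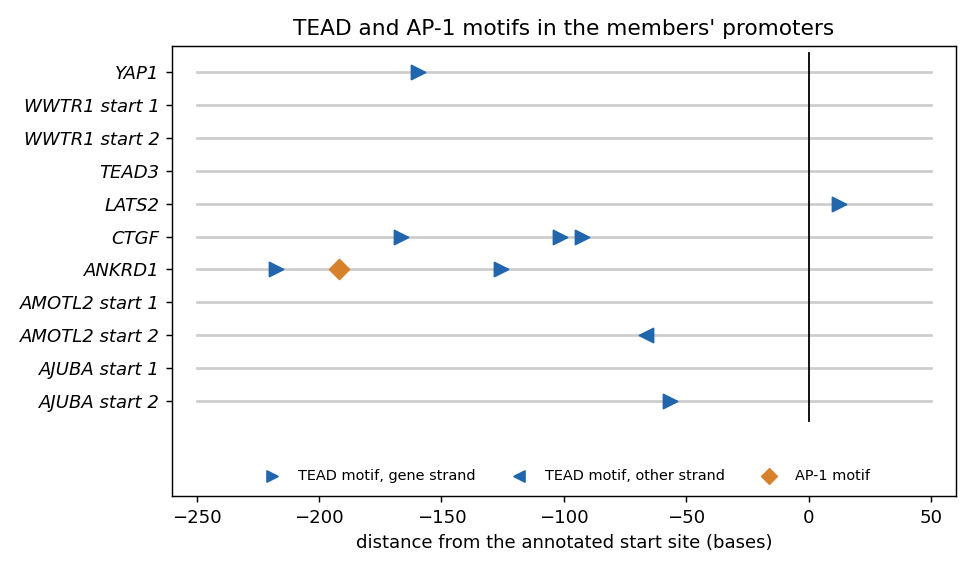
Position of motifs in the 11 RefSeq promoters of 8 genes. The x axis is the distance from the annotated start in bases, and blue arrowheads are TEAD motifs pointing along or against the gene. The orange diamond is a match of the loose AP-1 pattern TGANTCA, and grey lines show the stretch searched. CTGF carries 3 TEAD motifs and ANKRD1 2, while both starts of WWTR1 and the start of TEAD3 carry none.

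In the whole table, 11964 features had a mean of both groups of at least 1 FPKM. Their median log2 ratio was 0.21, or 1.16-fold, with quartiles of 0.02 and 0.41, and 9217 of them (77.0%) lay above 0. FPKM summed over all features came to 667281 in untreated and 873757 in ISOX-treated cells. With each group rescaled to equal sums without the highest feature, every log2 ratio moves down by 0.39 and the median becomes -0.17. The sign of a small log2 ratio therefore depends on the scaling, and ratios are set below against the median of 0.21 as well as 0. Reading from the median takes the middle feature as unchanged, which was not tested. The labelled cell type fits its markers: the 7 epithelial markers (KRT8, KRT18, KRT19, KRT7, EPCAM, CDH1 and CLDN4) summed to 6442 FPKM without and 7850 FPKM with ISOX, with CDH1 lowest at 113 and 125 FPKM. Of 6 fibroblast markers, LUM was at 12.9 and 36.8 FPKM and COL1A1 at 2.48 and 2.75 FPKM, while COL1A2, COL3A1, DCN and PDGFRB were each under 0.5 FPKM in both groups, and the list summed to 15.5 and 40.1 FPKM. Of 4 immune markers, CD68 was at 20.1 and 26.2 FPKM and CD14 at 2.68 and 7.02 FPKM, PTPRC was at 0.00579 and 0.0118 FPKM and CD3E was listed at 0, and the list summed to 22.8 and 33.3 FPKM. All 4 endothelial markers were at or near 0, with sums of 0.145 and 0.131 FPKM. LUM and CD14 differ between the groups alongside the genes described here, and their part in the results was not tested.

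Transcripts of both coactivators and of TEAD1 and TEAD3 were present in CD18/HPAF cells with and without ISOX. Those of most targets were lower than all of these factors. In both groups, however, AMOTL2 was higher than TEAD1 and TEAD3, and AJUBA was higher than TEAD3. YAP1 was the highest member. Its level was 47.0 FPKM without and 49.8 FPKM with ISOX, a log2 ratio of 0.08. Its level lay above that of 84.6% of the features counted, while its log2 ratio lay above that of only 32.2% of them. WWTR1 was next, at 27.7 and 39.3 FPKM, with a log2 ratio of 0.51, the highest of the 4 factors. Of the coactivators, WWTR1 thus had the higher ratio under any scaling, though with equal sums YAP1, at -0.30, lay farther from 0 than WWTR1, at 0.12. TEAD1, which encodes a DNA-binding factor of the pathway, was at 12.1 and 14.7 FPKM (log2 ratio 0.28), and TEAD3, which encodes its paralog, at 7.81 and 8.47 FPKM (log2 ratio 0.12). Measured from the median of 0.21, WWTR1 lay 0.30 and TEAD1 0.07 above it, and YAP1 lay at -0.13 and TEAD3 at -0.09, so that the factors stood on both sides of it.

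Among the targets that are secreted proteins, CYR61 stood at 6.40 FPKM without and 7.97 FPKM with ISOX, a log2 ratio of 0.32. CTGF, its close relative in the CCN family, was lower, at 1.94 and 2.85 FPKM. As deposited, its log2 ratio of 0.56, or 1.47-fold, was the highest of the 10 genes. This first place was lost under a pseudocount of 1 FPKM, where CTGF fell to 0.39, below WWTR1 at 0.49 and AJUBA at 0.44. A pseudocount of 0.1 FPKM kept CTGF first, at 0.53 against 0.50 for WWTR1. The level of CTGF lay above that of only 12.7% of the features counted. Among the 1196 features of like level, from 1 of 10 classes of equal size by mean FPKM, the quartiles of the log2 ratio were -0.10 and 0.39, and CTGF lay above both. WWTR1 and AJUBA likewise lay above the upper quartiles of their own classes, 0.43 and 0.37. YAP1 lay below the lower quartile of its class, 0.12. The other members above 1 FPKM lay between the quartiles of their classes.

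Among the targets that act back on the pathway, AMOTL2 stood at 13.8 FPKM without and 16.4 FPKM with ISOX (log2 ratio 0.26). AJUBA was at 11.4 and 15.8 FPKM (log2 ratio 0.47), and LATS2 at 2.99 and 3.09 FPKM (log2 ratio 0.05, the lowest of the members above 1 FPKM). Among these 3, AJUBA had the highest ratio and LATS2 the lowest, an order that no scaling alters, while the distance of each from 0 depends on the scaling.

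ANKRD1, often used as a readout of YAP, stood at 0.114 FPKM without and 0.0519 FPKM with ISOX and did not reach the minimum. As deposited it was the only member with a lower value in ISOX-treated cells, a log2 ratio of -1.14. Both other scalings move every ratio down, so they could only lower this one further. That ratio rests on values far under 1 FPKM: with 1 FPKM added to both groups it was -0.08, and with 0.1 FPKM added it was -0.50. CTGF and ANKRD1 have the promoters with the most TEAD motifs of those shown above, and they were the lowest members in level. LATS2, the next lowest, and YAP1, the highest, hold 1 motif each, as do AMOTL2 and AJUBA at their second listed start. WWTR1 and TEAD3 hold none, and AMOTL2 and AJUBA were higher in level than TEAD3. TEAD1 and CYR61 were not matched, and a link between motifs and level was not tested.

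**Figure D2:**
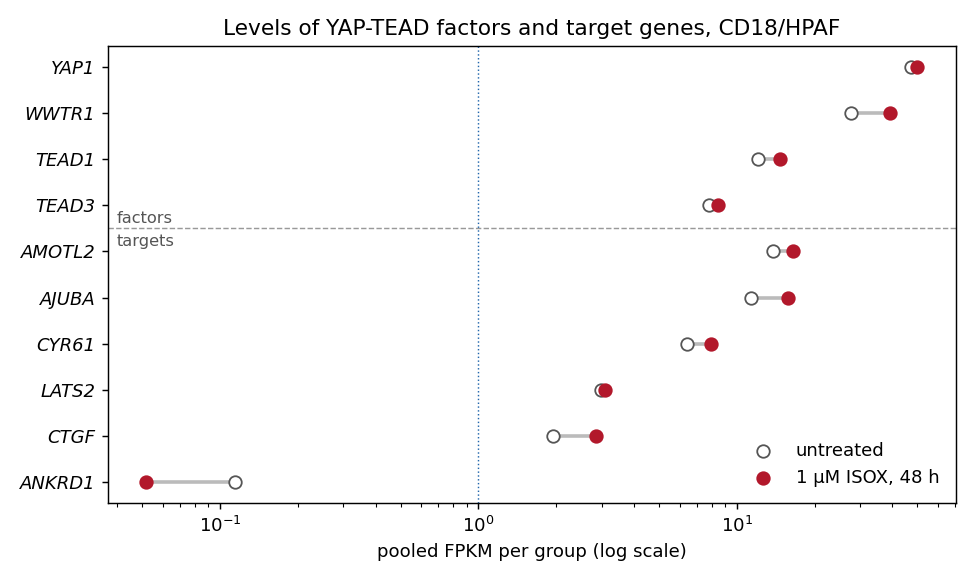
Pooled FPKM of each of the 10 genes on a log axis, with open circles for untreated and red circles for ISOX-treated CD18/HPAF cells. Each circle is the authors' single value for 12 samples, so there are no error bars, and the dotted line marks 1 FPKM. YAP1 is highest at 47.0 and 49.8 FPKM and ANKRD1 lowest at 0.114 and 0.0519 FPKM. The sign of several differences depends on the scaling: with equal sums only WWTR1, CTGF and AJUBA keep a higher value with ISOX.

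Ordered by untreated level, the genes ran YAP1, WWTR1, AMOTL2, TEAD1, AJUBA, TEAD3, CYR61, LATS2, CTGF and ANKRD1. With ISOX the order was the same except that AJUBA stood before TEAD1, at 15.8 against 14.7 FPKM. Whether neighbours in this order differ cannot be said without a spread. YAP1 was 24.3 times as high as CTGF in untreated and 17.5 times in ISOX-treated cells.

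None of the 9 members above the minimum lay more than 1.5-fold higher with ISOX, and none lay more than 1.5-fold lower. Among all 11964 features, 12.6% lay more than 1.5-fold higher and 2.4% more than 1.5-fold lower. Measured from the median of 0.21 in place of 0, 5.82% of all features lay beyond 1.5-fold above and 5.04% below, and again none of the 9 members did. CTGF, at 1.47-fold, and WWTR1, at 1.42-fold, came closest to this limit. The 9 members ranged from 1.04-fold to 1.47-fold. Over only 9 genes, counts of 0 are close to these shares and are no result about the pathway. As deposited all 9 had a log2 ratio above 0, like 77.0% of all features. Measured from the median, 6 of the 10 members lay above 0 (WWTR1, TEAD1, CYR61, CTGF, AMOTL2 and AJUBA), and with equal sums 3 did (WWTR1, CTGF and AJUBA).

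**Figure D3:**
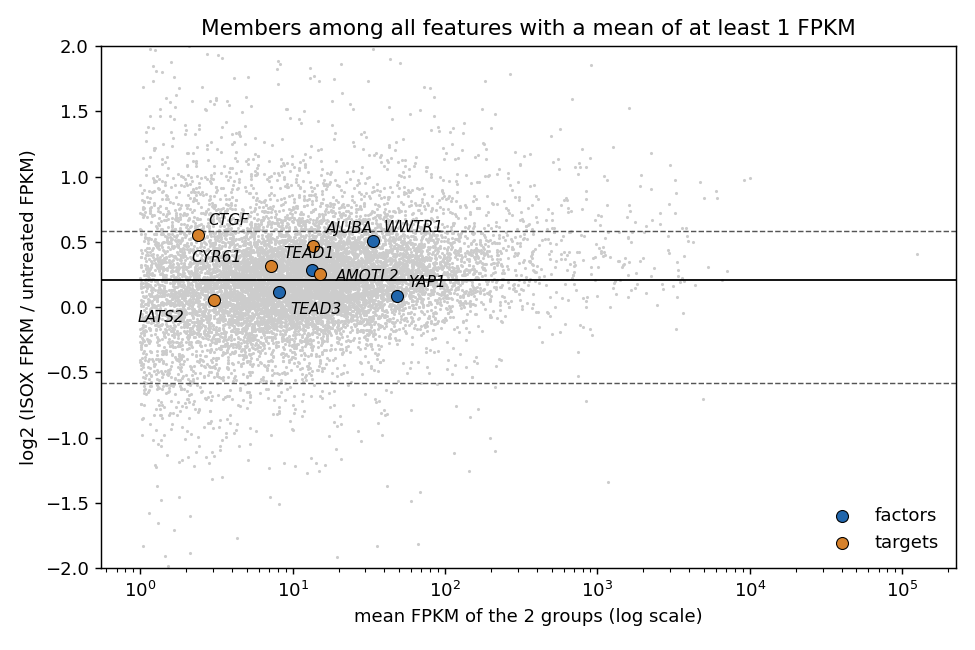
Log2 ratio of ISOX over untreated FPKM against the mean FPKM of both groups on a log axis, with 1 grey point for each feature of at least 1 FPKM (107 features beyond 2 on the log2 scale fall outside the axis). The solid line is the median of 0.21 and the dashed lines mark 1.5-fold in either direction. All 4 factors (blue) and the 5 targets that reach 1 FPKM (orange) lie between the dashed lines, from 0.05 for LATS2 to 0.56 for CTGF.

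The factors and the targets differed little as groups. The median log2 ratio was 0.20 over the 4 factors, with a range of 0.08 to 0.51, and 0.32 over the 5 targets above 1 FPKM, with a range of 0.05 to 0.56. The medians are 0.12 apart, the ranges overlap over most of their length, and the median of all features, 0.21, lies between the medians. Of the 4 factors 2 lay above that median, and of the 5 targets 4. In summed FPKM the factors went from 94.6 to 112 (log2 ratio 0.25) and these targets from 36.5 to 46.1 (log2 ratio 0.34). CYR61 and CTGF, which encode no regulator of the pathway, had a median of 0.44, and AMOTL2, AJUBA and LATS2 lay on both sides of the median of the factors.

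Shares within a family of paralogs do not depend on how the groups were scaled. WWTR1 made up 37.1% of the summed FPKM of YAP1 and WWTR1 in untreated cells and 44.1% in ISOX-treated cells, so that the excess of YAP1 went from 1.70-fold to 1.27-fold. Among the 4 TEAD genes, TEAD1 held 43.4% and 47.4%, TEAD3 28.0% and 27.2%, TEAD4 19.7% and 14.3%, and TEAD2 8.85% and 11.2% of the sum. TEAD4 was at 5.49 and 4.44 FPKM (log2 ratio -0.31), the only TEAD gene with a value below 0 as deposited. TEAD2 was at 2.47 and 3.47 FPKM, in a row that joins it with SLC6A16, so that its fragments cannot be told apart from those of its neighbour. CTGF held 23.2% and 26.3% of the sum of CYR61 and CTGF. AMOTL2 held 83.9% and 80.7% of the sum of AMOTL1 and AMOTL2, while AMOT, the founding gene of the family, was listed at 0 in both groups. LATS2 held 44.8% and 43.1% of the sum of LATS1 and LATS2. Shifts of the shares toward TAZ and away from TEAD4, at 7.05 and -5.43 percentage points, were the largest of the 5 families. They show unequal change within a family and not which gene moved, and no spread can be set beside them.

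**Figure D4:**
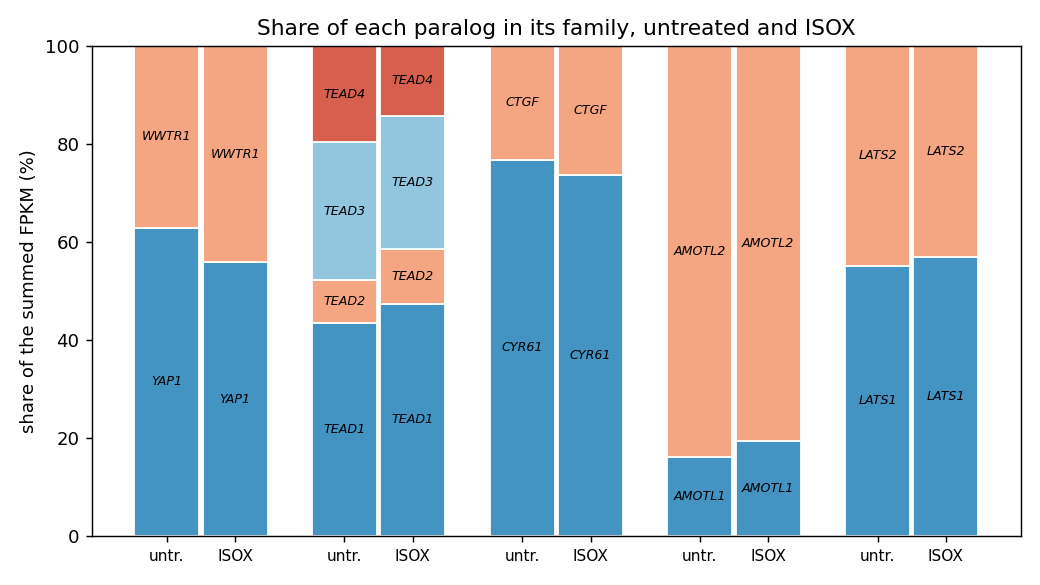
Share of each paralog in the summed FPKM of its family, in percent, for untreated and ISOX-treated cells, with 1 pair of stacked bars for each of 5 families. The share of WWTR1 is 37.1% in untreated and 44.1% in ISOX-treated cells and that of TEAD4 is 19.7% and 14.3%. The other families differ by under 4 points between the groups.

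The rest of the pathway was described with lists of named genes. In the Hippo kinase core all 11 genes reached 1 FPKM, none lay beyond 1.5-fold in either direction, and the median log2 ratio was 0.20, against 0.21 over all features. STK3, which encodes the kinase MST2, was at 14.5 and 21.1 FPKM (log2 ratio 0.54), and MAP4K4, another kinase upstream of LATS, at 13.6 and 18.5 FPKM (log2 ratio 0.45). TAOK3, which encodes a kinase that activates MST kinases, and MOB1B, which encodes a cofactor of LATS, each had a log2 ratio of 0.40. Of 18 upstream regulators 16 reached 1 FPKM, 1 lay more than 1.5-fold higher and none lower (12.6% and 2.4% of all features), with a median of 0.10. The higher gene was FRMD6, which encodes a FERM domain protein of the cell cortex, at 2.66 and 4.60 FPKM in the highest of its 7 rows, and measured from the median of all features it did not lie beyond 1.5-fold. MPP5, which encodes a scaffold of apical polarity, was at 21.4 and 29.3 FPKM, NF2, the gene of the tumor suppressor merlin, at 7.86 and 9.72 FPKM, and CRB3, which encodes a Crumbs polarity protein, at 38.8 and 30.4 FPKM (log2 ratio -0.35).

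Of the 10 nuclear genes (YAP1, WWTR1, TEAD1 to TEAD4 and the VGLL cofactors) 9 reached 1 FPKM, none lay beyond 1.5-fold, and the median log2 ratio was 0.08. VGLL4, which encodes a cofactor that competes with YAP for TEAD, was at 17.9 and 18.9 FPKM, and VGLL1 at 1.46 and 1.52 FPKM. Of the 3 angiomotin genes, AMOTL1 was at 2.64 and 3.93 FPKM (log2 ratio 0.57) beside AMOTL2, and neither lay beyond 1.5-fold. Of 7 genes of LIM proteins akin to AJUBA and zyxin, 6 reached 1 FPKM and none lay beyond 1.5-fold, with a median of 0.22. ZYX, the gene of zyxin at focal adhesions, was at 27.1 and 35.7 FPKM and LPP at 11.2 and 14.6 FPKM, while FBLIM1 had a log2 ratio of -0.24 and LIMD1 of -0.20. Of the 6 CCN genes only CYR61 and CTGF reached 1 FPKM.

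The wider set of targets stood somewhat above the members. In a list of 22 YAP/TAZ target genes known from other tumors, which includes 5 of the 6 targets described here, 18 genes reached 1 FPKM, 5 lay more than 1.5-fold higher and none lower (12.6% and 2.4% of all features), and the median log2 ratio was 0.38. Without the members it was 0.46 over 14 genes. F3, the gene of tissue factor, the cell surface trigger of clotting, was the highest in level of those named, at 236 and 392 FPKM (log2 ratio 0.73). CRIM1, which encodes a transmembrane protein that binds BMPs, was at 3.11 and 5.25 FPKM (log2 ratio 0.75), AXL, a receptor tyrosine kinase gene, at 10.0 and 16.0 FPKM (log2 ratio 0.67), and GADD45A, a stress and DNA damage response gene, at 28.9 and 44.4 FPKM (log2 ratio 0.62). The fifth higher gene was MYOF, which encodes the membrane protein myoferlin, at 77.3 and 118 FPKM (log2 ratio 0.61). IGFBP3, which encodes a binding protein of insulin-like growth factors, was at 177 and 122 FPKM. Its log2 ratio of -0.54 was the lowest of the 18 genes that reached 1 FPKM. ARHGEF17 followed, at 5.23 FPKM with ISOX and a log2 ratio of -0.42. MYOF, IGFBP3 and ARHGEF17 fall outside the rule for named genes and were chosen after their values were seen. Measured from the median of all features, none of the 18 genes lay beyond 1.5-fold above and 2 lay beyond it below (5.82% and 5.04% of all features), so the 5 higher genes depend on the scaling.

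**Figure D5:**
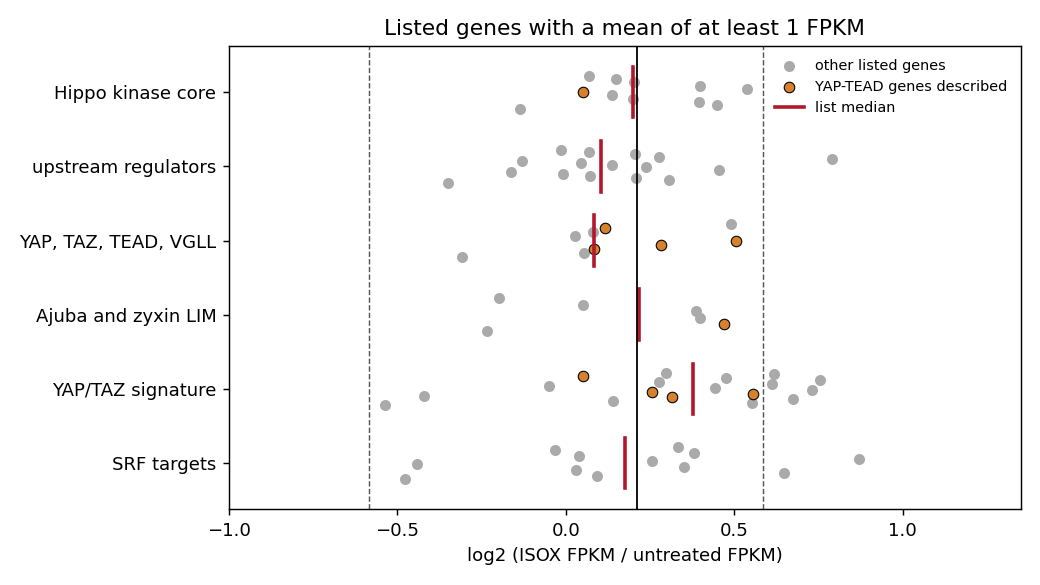
Log2 ratio of ISOX over untreated FPKM for each listed gene of at least 1 FPKM, 1 row of points for each of the 6 lists drawn (the angiomotin and CCN lists, with 2 genes each, are left out), with genes of the YAP-TEAD group in orange, other listed genes in grey and the list median as a red bar. The black line is the median of all features, 0.21, and dashed lines mark 1.5-fold. The medians of the lists drawn run from 0.08 for the nuclear genes to 0.38 for the YAP/TAZ signature, and 5 signature genes lie beyond the upper dashed line as deposited but none when measured from the black line.

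In position, the 10 genes share no neighbourhood. They lie on 7 chromosomes of hg38, and YAP1 (chromosome 11, from 102110357 to 102233423) and TEAD1 (chromosome 11, from 12674422 to 12944939) lie far apart on the same one. WWTR1 lies on chromosome 3 from 149517235 to 149703273, and AMOTL2 on the same chromosome from 134355345 to 134375417. TEAD3 lies on chromosome 6 from 35473384 to 35497084, and CTGF on that chromosome from 131948177 to 131951378. CYR61 lies on chromosome 1 from 85580761 to 85583965, ANKRD1 on chromosome 10 from 90912100 to 90921275, LATS2 on chromosome 13 from 20973036 to 21061583, and AJUBA on chromosome 14 from 22971174 to 22982642. In the GENCODE 29 annotation of the same genome, the exons of TEAD1, TEAD3, LATS2, CYR61 and ANKRD1 overlap those of no other gene. Those of YAP1, WWTR1 and CTGF share 9.97%, 9.45% and 8.34% of their bases with an antisense gene, and the strand setting of the counting is not given in the sources used here, so that reads in these stretches cannot be told apart. The antisense gene of WWTR1, WWTR1-AS1, was at 0.165 and 0.128 FPKM, far below WWTR1. AMOTL2 shares 3.12% of its exon bases with a pseudogene, RPL39P5, and AJUBA 0.836% with a neighbouring gene.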

How the data were processed

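RNA of CD18/HPAF cells was sequenced by the authors as paired-end reads. The aligners Bowtie and TopHat, the quantifiers Cufflinks and Cuffdiff and the build hg38 are named in the processing notes of the submitters. Their versions and filters and the strand setting were not given there or in the methods. From these tools FPKM values were deposited, pooled by the authors into 1 value per gene and group. The depth per sample is unknown, so no interval or detection limit was computed. The deposited table also holds the authors' own fold changes, test statistics, p-values and q-values, which were not used. Starts in it count from 0 and are given here counting from 1.

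Groups were taken from the labels. Log2 ratios were computed without a pseudocount, over features with a mean of both groups of at least 1 FPKM, and a gene with several rows was read from its highest row. No test was run, since the pooled values allow none. Differences beyond 1.5-fold were counted, and the counting was tested on simulated data. Besides the 10 members, up to 4 genes per list were named, those with the largest absolute log2 ratio, and paralogs of the members and cell type markers were named besides. The members and lists were chosen with earlier results of these data known. Alternatives were pseudocounts of 1 and 0.1 FPKM, centring, rescaling to equal sums, a fold of 2, no filter or a filter of 5 FPKM, the mean, fewer targets and rows with a single name. A planned comparison of protein sequences was not made. Python 3.11.15 was used with numpy 2.4.6, pandas 2.3.3 and matplotlib 3.10.9.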

Additional observations from a re-analysis of the deposited data

How the results depend on the processing

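No paired analysis was possible because the deposited values are pooled over the samples of each group, and for the same reason no sample could be left out. The scale decided the sign of the medians: that of the factors was -0.011 when centred on the median of all features and -0.19 when rescaled to equal sums, and that of the targets was 0.11 and -0.069. Of the 10 members, 6 lay above 0 when centred and 3 when rescaled, against 9 as deposited. The distance between targets and factors is the same under either scaling. Without LATS2, AMOTL2 and AJUBA only CYR61 and CTGF remained as targets above the filter. Their median was 0.44, and 0.24 above that of the factors, a distance that rests on these genes alone. Without a filter, 1 member, ANKRD1, lay beyond 1.5-fold lower. A pseudocount, a filter of 5 FPKM, the mean of the members or rows with a single name moved each of these medians and their difference by less than 0.1. Taken singly, 8 of the 10 members moved by less than 0.1 under a pseudocount of 1 FPKM. CTGF and ANKRD1 moved farther, and CTGF was then no longer the highest member. A fold of 2 left the counts of members at 0. What limits the values is the lack of any spread between samples and the unknown depth, most of all for ANKRD1 and CTGF.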

Other observations

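SRF, the actin-regulated factor that shares some targets with YAP, is known to switch on genes of the cytoskeleton. The list used holds 16 genes: such targets, SRF itself, and MKL1 and MKL2, which encode cofactors of SRF. Of these 16 genes 12 reached 1 FPKM, 2 lay more than 1.5-fold higher with ISOX and none lower (12.6% and 2.4% of all features). The median log2 ratio was 0.17, against 0.21 over all features. SRF, MKL1 and MKL2, at 0.09, -0.03 and 0.03, count in that median and lie below it, so it is not a median of targets alone. FHL2, which encodes a LIM domain cofactor, was at 39.3 and 71.9 FPKM (log2 ratio 0.87), and FLNA, the gene of the actin crosslinker filamin A, at 41.4 and 64.9 FPKM (log2 ratio 0.65). TPM2, a tropomyosin gene, was at 134 and 98.9 FPKM (log2 ratio -0.44), and MYL9, which encodes a myosin light chain, at 1.18 and 0.850 FPKM (log2 ratio -0.48). Measured from the median of all features, FHL2 alone lay beyond 1.5-fold above, and TPM2 and MYL9 lay beyond it below (5.82% and 5.04% of all features).

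Genes with and without the TEAD motif in their promoter had about the same median. The median log2 ratio was 0.22 over 1340 genes with at least 1 motif and 0.22 over 7616 genes with none, with quartiles of 0.03 and 0.42 in the former and 0.03 and 0.41 in the latter. Over the 112 genes with at least 2 motifs it was 0.24. Over the 8 genes with at least 3, among them CTGF, it was 0.39, with quartiles of 0.15 and 0.54. Genes are not independent replicates, and these are values without a test.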
